A study of Mus musculus with 19 samples.

Results

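Olfactory receptors (Olfr genes, renamed Or in newer nomenclature) and vomeronasal receptors (Vmn1r and Vmn2r genes) are G protein-coupled receptors for odorants and for pheromone-like cues. Each olfactory sensory neuron of the nose expresses 1 olfactory receptor gene, and signals through cyclic AMP and a cyclic nucleotide-gated channel. Neurons of the vomeronasal organ express Vmn1r or Vmn2r receptors and depend on the channel Trpc2. The forebrain receives their projections through the olfactory bulbs, while the receptor genes are best known from the sensory epithelia; some, such as Olfr78, are also expressed in other tissues.

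The receptors were measured in mouse forebrain on Affymetrix Mouse Gene 2.0 ST arrays. Every probe set with a platform symbol beginning Olfr, Or followed by a family number and letter, Vmn1r, Vmn2r or Taar was taken, whatever other symbols it carried. This gave 114 of the 8751 rows in the table used here, which may not hold every probe set of the platform. Rows with identical values were counted once, which left 98 receptor profiles among 8405 distinct profiles. They comprise 40 olfactory, 37 Vmn1r and 21 Vmn2r profiles, with 0 for the trace amine-associated (Taar) receptors. Of the 98, 38 carried 1 symbol and 60 carried several. A symbol without such a beginning, for example Gm10302 or Ifi47, was also listed on 21, and whether those genes are receptors was not checked. The 98 profiles name 180 receptor symbols, of which 179 were found in the RefSeq gene table of assembly GRCm38.p6, 171 as protein-coding genes and 8 as pseudogenes.

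The mice were EphA4 knockouts and their wild type littermates of a mixed BL6/10 strain, kept in a cycle of 12 h light and 12 h dark. EphA4 is a receptor tyrosine kinase that binds ephrins. In each genotype, undisturbed controls were compared with mice deprived of sleep for 6 h, which gave 4 wild type controls, 6 sleep-deprived wild type, 4 knockout controls and 5 sleep-deprived knockout arrays. The labels do not say which part of the gene is deleted, do not give ages and do not say that each array was a separate mouse. The p-values below therefore describe the spread between arrays, which may be technical. No probe set of the table used here carried the symbol Epha4, so the genotype was not checked on its own gene. Correlations between arrays over all rows ran from 0.981 to 0.993, and the array medians from 5.90 to 6.07 on the log2 scale. The forebrain label could not be checked, since no defining marker of neurons, glia or sensory epithelium was in the table used here under its own name except Trpc2. In bulk tissue, fewer cells of a type and less RNA per cell cannot be told apart.

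Many receptor profiles cannot be assigned to 1 gene. The Vmn1r genes were the extreme case: 30 of their 37 profiles carried several symbols, 23 listed at least 9 receptors and the longest listed 20. Of the 21 Vmn2r profiles, 7 listed at least 9 receptors, with a maximum of 16. No olfactory profile listed more than 5, and 25 of the 40 carried 1 symbol. The Vmn1r genes were also alike outside the coding sequence. Among 82 windows of 250 bases before annotated Vmn1r starts (RefSeq, GRCm38.p6), there were 50 distinct sequences, and 52 windows had an identical twin.

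Vmn1r91 and Vmn1r124, which share a probe set with Vmn1r148, are given as a chosen example, and whether they are typical was not tested. Their windows, at chr7:20100908-20101157 on the plus strand and chr7:21260618-21260867 on the minus strand, are identical at 98.0% of positions. They are printed 5′ to 3′ in gene orientation, with the 5 bases that differ in capitals.
Vmn1r91: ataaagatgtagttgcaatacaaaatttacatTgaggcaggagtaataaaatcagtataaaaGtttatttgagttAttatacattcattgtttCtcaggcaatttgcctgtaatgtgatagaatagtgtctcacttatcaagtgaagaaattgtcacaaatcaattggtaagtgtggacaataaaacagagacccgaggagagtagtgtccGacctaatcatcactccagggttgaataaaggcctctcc
Vmn1r124: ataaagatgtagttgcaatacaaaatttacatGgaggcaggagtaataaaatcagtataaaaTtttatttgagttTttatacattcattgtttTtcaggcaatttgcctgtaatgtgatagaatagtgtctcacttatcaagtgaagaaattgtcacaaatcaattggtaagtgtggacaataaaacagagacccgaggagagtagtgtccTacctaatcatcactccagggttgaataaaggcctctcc

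The windows of Vmn1r148, at chr7:22411981-22412230 on the plus strand, and Olfr560, at chr7:102753928-102754177 on the minus strand, are shown because these genes are named on the 2 receptor profiles called between genotypes below. Capitals mark TATAAA, the letters of a TATA box, on either strand.
Vmn1r148: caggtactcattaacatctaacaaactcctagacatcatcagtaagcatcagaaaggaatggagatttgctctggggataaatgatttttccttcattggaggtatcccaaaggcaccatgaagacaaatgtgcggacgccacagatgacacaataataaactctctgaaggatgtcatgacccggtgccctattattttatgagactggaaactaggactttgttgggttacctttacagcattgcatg
Olfr560: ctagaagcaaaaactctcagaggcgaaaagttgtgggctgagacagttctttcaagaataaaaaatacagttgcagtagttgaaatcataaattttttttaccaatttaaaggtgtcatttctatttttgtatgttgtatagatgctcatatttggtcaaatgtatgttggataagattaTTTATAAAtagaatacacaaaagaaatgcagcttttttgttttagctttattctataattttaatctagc
The Olfr560 window holds overlapping matches on both strands and the Vmn1r148 window none. They occur in 16 of 43 olfactory windows (37.2%), 40 of 82 Vmn1r windows (48.8%), 4 of 32 Vmn2r windows (12.5%) and 12.4% of 32851 windows of all genes. TAATTA, the core read by many homeodomain proteins, was found in 10 olfactory (23.3%), 3 Vmn1r (3.66%) and 5 Vmn2r (15.6%) windows, against 4.84% of all windows. The 82 Vmn1r windows comprise 50 distinct sequences, so the Vmn1r shares count some sequences more than once. An ATG directly followed 133 of 157 receptor windows (84.7%), against 5.83% of all windows, so most of these windows end at the first codon of an annotated start rather than at a mapped transcription start. The Olfr560 window is among them, and the Vmn1r148 window is not, so the pair printed above do not end at the same kind of position.

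Most receptors gave low signal. The median over profiles of the mean log2 level was 5.19 for olfactory, 5.23 for Vmn1r and 5.65 for Vmn2r profiles, against 5.95 for all distinct profiles. Of the 98 receptor profiles, 24 were above that overall median and 60 were among the dimmest 40% of all profiles. A level above 7 was reached by 3 of 98 receptor profiles and by 2306 of 8405 distinct profiles. Profiles with 1 symbol had a median of 4.63, and those with several a median of 5.42. Levels of different probe sets depend on their probes, so these figures describe the signal of probe sets and not the order of transcript amounts.

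**Figure D1:**
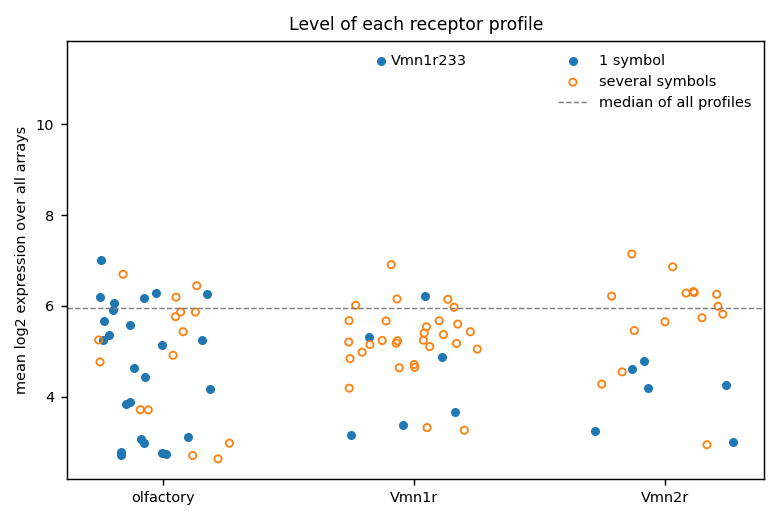
Mean log2 level over 19 arrays of each receptor profile by family, with filled points for profiles of 1 symbol, open points for profiles of several symbols and a line at the median of all distinct profiles. Vmn1r233 stands at 11.4, and 24 of the 98 profiles lie above the line.

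Vmn1r233, a vomeronasal type 1 receptor formerly called V1rf5, had the highest signal of the receptors, at a mean of 11.41 and rank 100 among 8405 distinct profiles. Its level was 11.42 ± 0.06 (SD, n = 4) in wild type controls, 11.36 ± 0.17 (n = 6) in sleep-deprived wild type, 11.33 ± 0.20 (n = 4) in knockout controls and 11.50 ± 0.09 (n = 5) in sleep-deprived knockouts. All 19 arrays lay between 11.11 and 11.61, and the 4 groups overlapped. No comparison passed the test for it: the change between genotypes after sleep deprivation was 0.14 ± 0.09 (SE, limma adjusted p = 0.48). The next highest Vmn1r profiles were Vmn1r207 with Vmn1r206 at 6.91 and Vmn1r148 at 6.21. The highest olfactory profile was Olfr538 at 7.01, and the highest Vmn2r profile, listing Vmn2r29 and 15 other receptors, was at 7.14. At the other end were Olfr1118 with Olfr1116 at 2.63, Vmn2r121 with Vmn2r125 and Vmn2r122 at 2.94, and Vmn1r173 at 3.16.

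Knockout against wild type after sleep deprivation was the comparison with receptor calls. There, 2 of 98 receptor profiles passed the limma test at an adjusted p under 0.05, both higher in the knockout, beside 139 of 8405 distinct profiles (1.65%), or 1.51% counted as higher, so the receptors' share was near the background. The 2 were Vmn1r148 and the probe set shared by Olfr564 and Olfr560. They were also the 2 receptor profiles whose sleep-deprived groups did not overlap with the knockout higher, against 1.5% of all profiles; 0 separated with the knockout lower, against 0.523%. At an unadjusted p under 0.05 there were 6 of 98 receptor profiles, against 15.6% of all profiles. Of the 98, 37 had a positive difference, and their median was -0.05, against 52.3% and 0.01 over all profiles. With median centring, 27.6% of receptor and 46.1% of all profiles were positive. The families' medians were -0.06 for olfactory, -0.01 for Vmn1r and -0.06 for Vmn2r profiles, and single profiles ran from -0.26 to 1.10.

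Vmn1r148, a vomeronasal type 1 receptor also called V1rd14, was singled out with its call already known. Its log2 levels were 6.13, 6.01, 6.31 and 5.91 in wild type controls. In the 6 sleep-deprived wild type arrays the lowest was 5.35, the median 5.77 and the highest 6.04. Knockout controls had 6.40, 6.51, 6.39 and 5.75, and sleep-deprived knockouts 7.09, 6.48, 6.68, 6.63 and 7.31. Every sleep-deprived knockout array was above every sleep-deprived wild type array, while both control groups overlapped each other and the knockout groups met at 6.51 and 6.48. Knockout control replicate 4 lay below the other 3 of its group, inside the range of the sleep-deprived wild type arrays.

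The group means of Vmn1r148 were, in rising order, 5.74 ± 0.24 (SD, n = 6) in sleep-deprived wild type, 6.09 ± 0.17 (n = 4) in wild type controls, 6.26 ± 0.34 (n = 4) in knockout controls and 6.84 ± 0.35 (n = 5) in sleep-deprived knockouts. After sleep deprivation it was higher in the knockout by 1.10 ± 0.16 (SE, limma adjusted p = 0.0018), a 2.15-fold difference. In controls the genotypes differed by 0.17 ± 0.18 (adjusted p = 0.94). Sleep deprivation went with a change of -0.35 ± 0.17 in wild type (adjusted p = 0.63) and 0.57 ± 0.17 in the knockout (adjusted p = 0.17), neither past the threshold. The interaction, which tests whether those changes differ, was 0.93 ± 0.24 (adjusted p = 0.20) and also missed it, so a larger genotype difference after sleep deprivation than in controls was not shown. The knockout effect averaged over conditions was 0.64 ± 0.12 (adjusted p = 0.11). It passed without knockout control replicate 4, at 0.72 (adjusted p = 0.017), and when only rows of 1 symbol were tested (adjusted p = 0.040).

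Vmn1r148 also appeared on 7 further probe sets, each shared with other receptors and listing 10 to 20 in all. None passed the test in any comparison. After sleep deprivation their differences between knockout and wild type ran from -0.19 to -0.04, on the other side of 0 from the 1.10 of the probe set that names Vmn1r148 alone. In controls they ran from 0.10 to 0.24. Sleep deprivation changed them by 0.04 to 0.29 in wild type and by -0.28 to -0.01 in the knockout, and the lone probe set had the opposite sign in both. Over the 19 arrays, their Pearson correlations with the lone probe set lay between -0.17 and 0.02, as a description of arrays that share groups. A shared probe set can carry the signal of any gene it lists, so the 7 do not measure Vmn1r148 by itself.

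**Figure D2:**
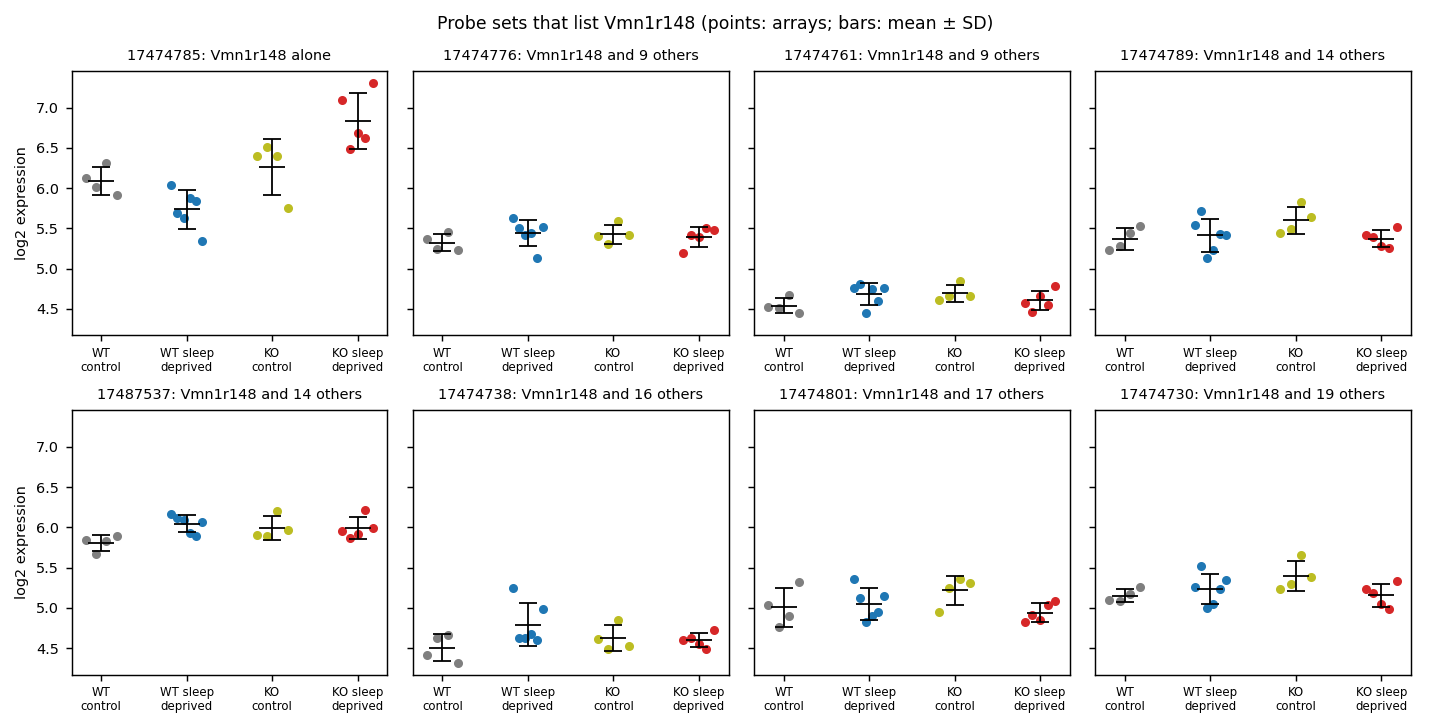
Log2 level per array of the probe set naming Vmn1r148 alone and of the 7 probe sets that list it with other receptors, in the 4 groups, with bars for mean ± SD. For the probe set naming Vmn1r148 alone, the sleep-deprived knockout arrays (6.48 to 7.31) lie above both wild type groups and overlap the knockout controls, while the sleep-deprived groups of the 2 genotypes overlap for the other 7.

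Ranked by the spread of their 4 group means, Vmn1r148 came first of the 98 receptor profiles at 1.10. Vmn1r208 followed with 0.49, Vmn1r78 with 0.48, and then the probe set of Olfr564 and Olfr560 with 0.45. The receptor profiles most correlated with Vmn1r148 over the 19 arrays were Olfr564 with Olfr560 (Pearson r = 0.69), Olfr782 with Olfr804 (0.63) and Vmn2r-ps11 with Vmn2r7 and Vmn2r6 (0.52). Among all other profiles of 1 symbol, the highest were Pcid2 (0.81), Ang4 (0.72), Gm6272 (0.67), Gm13981 (0.67) and Gm7589 (0.67). These are descriptions over arrays of 4 groups that differ in their means.

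The second call was the probe set listing the olfactory receptors Olfr564 and Olfr560. Its log2 levels were 5.20, 5.43, 5.46 and 5.78 in wild type controls. The sleep-deprived wild type arrays had a lowest value of 4.94, a median of 5.23 and a highest of 5.49. Knockout controls had 5.22, 5.45, 5.39 and 5.43, and sleep-deprived knockouts 5.67, 5.51, 5.61, 5.76 and 5.85. The sleep-deprived groups did not overlap, but their nearest arrays were at 5.51 and 5.49. The highest wild type control, at 5.78, lay inside the range of the sleep-deprived knockouts.

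For Olfr564 and Olfr560, the difference between genotypes was 0.45 ± 0.10 after sleep deprivation (SE, limma adjusted p = 0.029) and -0.10 ± 0.12 in controls (adjusted p = 0.94). The interaction was 0.54 ± 0.16 (adjusted p = 0.21). Sleep deprivation went with -0.23 ± 0.11 in wild type (adjusted p = 0.63) and 0.31 ± 0.11 in the knockout (adjusted p = 0.27). The call did not hold under several settings: adjusted p reached 0.067 when only the 2 groups compared were fitted, and lay between 0.053 and 0.067 without sleep-deprived wild type replicate 2 or 6 or sleep-deprived knockout replicate 1, 4 or 5. Over all alternatives that kept the profile it ran from 0.020 to 0.067.

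Olfr560 was also listed with Olfr78, a receptor known to respond to short-chain fatty acids. That probe set had levels of 4.83, 4.55, 4.63 and 4.68 in wild type controls, 4.59 to 5.10 with a median of 4.71 in sleep-deprived wild type, 4.86, 4.38, 4.86 and 4.47 in knockout controls, and 5.20, 4.88, 4.87, 5.02 and 4.60 in sleep-deprived knockouts. All 4 groups overlapped. The difference between genotypes after sleep deprivation was 0.13 ± 0.12 (limma adjusted p = 0.66).

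**Figure D3:**
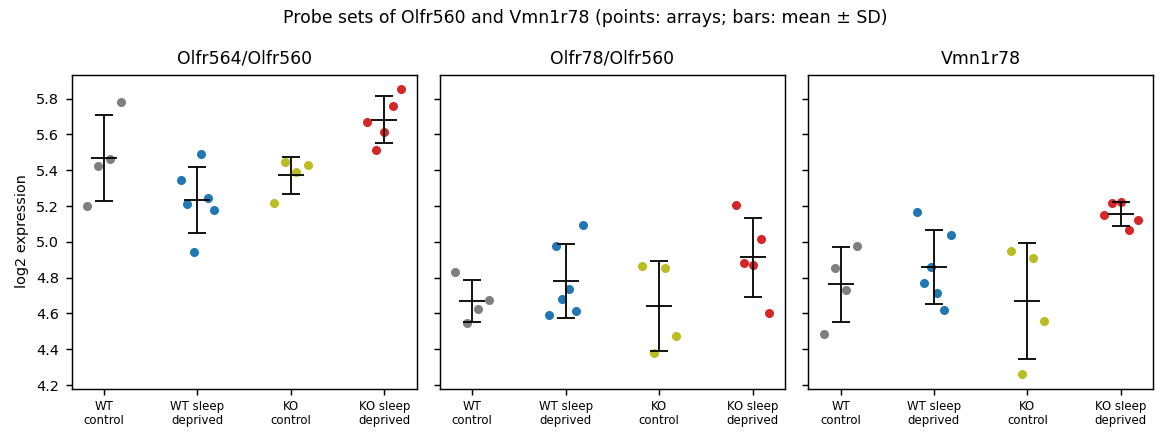
Log2 level per array in the 4 groups, with bars for mean ± SD, for the probe set of Olfr564 and Olfr560, the one of Olfr78 and Olfr560, and Vmn1r78. For Olfr564 and Olfr560, the sleep-deprived knockouts (5.51 to 5.85) do not overlap the sleep-deprived wild type arrays (4.94 to 5.49).

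No Vmn2r profile passed in this comparison. The nearest was the probe set of the pseudogene Vmn2r-ps11 with Vmn2r7 and Vmn2r6, with a difference of 0.20 ± 0.07 (limma adjusted p = 0.19). Vmn2r33 with 7 other receptors had a difference of -0.15 ± 0.07 (adjusted p = 0.32), and Vmn2r21 with Vmn2r20 and Vmn2r22 had -0.18 ± 0.09 (adjusted p = 0.36). Vmn2r receptors are expressed in the basal layer of the vomeronasal organ and bind peptides and proteins.

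In controls, knockout against wild type gave 0 called profiles of 98 by limma, beside 0 of 8405 (0.0%), and 5 of 98 at an unadjusted p under 0.05, against 5.5% of all profiles. All 5 were higher in the knockout, as were 305 of the 462 profiles at that threshold over the whole table. The groups did not overlap, with the knockout higher, in 2 receptor profiles, against 2.21% of all profiles. They were Olfr247 with Olfr819, at a difference of 0.26, and Vmn1r62 with 5 other receptors, also at 0.26. In 0 profiles did the groups separate with the knockout lower, against 1.53%. For Olfr247 with Olfr819, wild type controls had 5.66, 5.84, 5.71 and 5.87 and knockout controls 6.11, 6.05, 5.99 and 5.95, while the sleep-deprived knockouts, at 5.53, 5.87, 5.93, 5.58 and 5.95, overlapped both wild type groups.

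By family, 26 of 40 olfactory, 32 of 37 Vmn1r and 13 of 21 Vmn2r profiles had a positive difference in controls, with medians of 0.05, 0.10 and 0.03. Over all receptors 72.4% were positive and the median was 0.06, against 54.5% and 0.01 over all distinct profiles. Centring each array on its median lowered all profiles together: 57.1% of receptor profiles were then positive with a median of 0.02, against 42.5% and -0.02 over all profiles. The olfactory profiles then split 20 to 20, the Vmn2r median was -0.01, and 28 of 37 Vmn1r profiles were positive.

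Sleep deprivation in wild type gave 0 called receptor profiles by limma, beside 0 of 8405 (0.0%). At an unadjusted p under 0.05 there were 10 of 98, against 7.92% of all profiles. The groups did not overlap, with the sleep-deprived arrays higher, in 3 profiles, against 0.833%, and lower in 0, against 0.75%. The 3 were Olfr98 with Olfr97 (0.25), Vmn1r118 with 14 other receptors (0.24) and Vmn1r111 with 9 others (0.20). Every receptor on the Vmn1r111 probe set is also listed on the Vmn1r118 probe set, so the Vmn1r profiles among the 3 are not independent. Olfr98 with Olfr97 had 3.74, 3.55, 3.74 and 3.30 in controls and 3.77 to 3.92 after sleep deprivation, so the highest control lay just below the lowest sleep-deprived array.

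Positive changes with sleep deprivation in wild type were found for 30 of 40 olfactory, 33 of 37 Vmn1r and 16 of 21 Vmn2r profiles, with medians of 0.09, 0.11 and 0.05. Over all receptors 80.6% were positive with a median of 0.09, against 56.1% and 0.02 over all distinct profiles. With median centring the shares were 70.4% of receptor and 46.9% of all profiles, and with quantile normalization 76.5% and 52.6%. Many Vmn1r profiles list the same genes and are not independent: among the 23 listing at least 9 receptors, 22 were positive.

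In the knockout, sleep deprivation gave 0 called receptor profiles of 98 by limma, beside 20 of 8405 (0.238%), and 10 at an unadjusted p under 0.05, against 11.9%. Positive changes were found for 18 of 40 olfactory, 14 of 37 Vmn1r and 8 of 21 Vmn2r profiles, and the family medians lay between -0.04 and -0.02. Over all receptors 40.8% were positive, against 53.1% of all profiles. The groups did not overlap in 2 profiles that were higher after sleep deprivation, against 3.02%, and in 1 that was lower, against 1.32%. The lower one was Olfr247 with Olfr819 (-0.25), and the higher ones were Olfr564 with Olfr560 and Vmn1r78.

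Vmn1r78, a vomeronasal type 1 receptor measured by a probe set of its own, had 4.95, 4.26, 4.91 and 4.56 in knockout controls and 5.15, 5.21, 5.22, 5.07 and 5.12 in sleep-deprived knockouts. Every sleep-deprived knockout array was above every knockout control. The change was 0.48 ± 0.13 (SE, limma adjusted p = 0.14). The wild type groups overlapped, at 4.76 ± 0.21 (SD, n = 4) in controls and 4.86 ± 0.21 (n = 6) after sleep deprivation.

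Averaged over genotypes, sleep deprivation gave 0 called receptor profiles by limma, beside 19 of 8405 (0.226%). All 8 profiles with an unadjusted p under 0.05, against 8.05% of all profiles, were higher after sleep deprivation, as were 434 of the 677 at that threshold over the whole table. Among them, Vmn1r208 changed by 0.35 ± 0.14 (adjusted p = 0.53), Olfr427 by 0.26 ± 0.10 (0.49), Olfr1272 with the pseudogene Olfr1273-ps by 0.25 ± 0.09 (0.37) and Vmn1r78 by 0.29 ± 0.09 (0.33). Olfr427 overlapped between controls and sleep-deprived arrays in both genotypes. The knockout effect averaged over conditions gave 0 called receptor profiles, beside 1 of 8405 (0.0119%), and 5 at an unadjusted p under 0.05, against 8.84%.

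**Figure D4:**
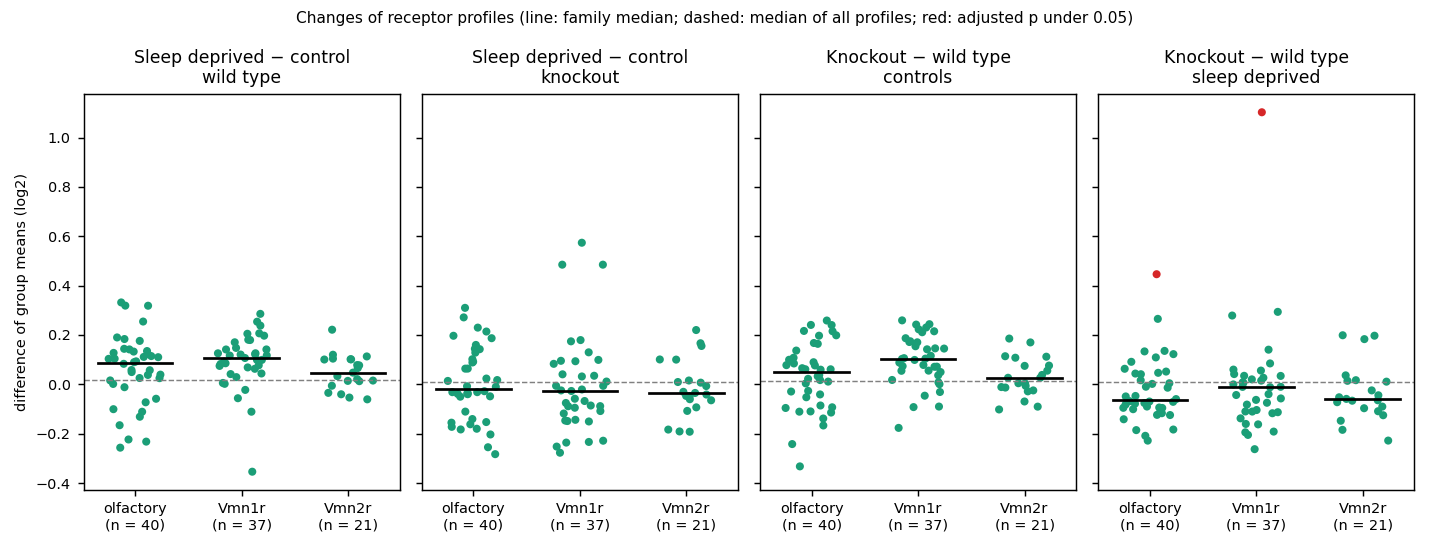
Log2 change of each receptor profile by family in 4 comparisons, with family medians as solid lines, the median of all profiles dashed and profiles with an adjusted p under 0.05 in red. In the comparison after sleep deprivation, Vmn1r148 stands apart at 1.10, while the other profiles lie at 0.45 or below.

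The interaction of genotype and sleep deprivation gave 0 called receptor profiles of 98 by limma, beside 6 of 8405 (0.0714%), or 0.0595% counted as positive. At an unadjusted p under 0.05 there were 9, against 11.7%, of which 2 were positive and 7 negative. Negative values mean a smaller or more negative change with sleep deprivation in the knockout than in wild type. They were found for 22 of 40 olfactory, 29 of 37 Vmn1r and 16 of 21 Vmn2r profiles, with medians of -0.06, -0.15 and -0.06. The wild type controls also enter the comparisons of sleep deprivation in wild type and of genotype in controls, so the sign counts of all these comparisons are not independent. Of the 98, 31.6% were positive, against 49.1% of all profiles. Among the 23 Vmn1r profiles listing at least 9 receptors, 22 were negative with a median of -0.16, and among the other 14 the split was 7 to 7. The most negative olfactory profile was Olfr98 with Olfr97 at -0.43 ± 0.17 (limma adjusted p = 0.35), and Vmn1r129 with 9 other receptors had -0.40 ± 0.14 (adjusted p = 0.28).

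Of the 23 Vmn1r profiles listing at least 9 receptors, Vmn1r129 with 9 other receptors had the most negative interaction, at -0.40. Its single arrays are therefore an extreme case and not a typical one. Wild type controls had 5.08, 5.42, 5.02 and 5.34, and the sleep-deprived wild type arrays lay between 5.41 and 5.51 with a median of 5.48. Knockout controls had 5.58, 5.36, 5.27 and 5.61, and sleep-deprived knockouts 5.27, 5.04, 5.24, 5.42 and 5.54. The wild type groups overlapped by a single control array, at 5.42, and the knockout groups overlapped over most of their range.

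The family medians were also taken on each array. The median of the 37 Vmn1r profiles was 5.14 ± 0.07 (SD, n = 4) in wild type controls, 5.23 ± 0.13 (n = 6) in sleep-deprived wild type, 5.29 ± 0.10 (n = 4) in knockout controls and 5.20 ± 0.07 (n = 5) in sleep-deprived knockouts. In controls, every knockout array was above every wild type array, narrowly, with the nearest at 5.2394 and 5.2392. These values were not centred. The median of all rows was 5.99 on that knockout array (replicate 1) and 5.93 on that wild type array (replicate 4). Relative to these medians the wild type array was the higher of the pair, so the separation does not hold after median centring. For the 14 Vmn1r profiles listing fewer than 9 receptors, the medians were 4.86 ± 0.08 in wild type controls and 4.98 ± 0.10 in sleep-deprived wild type. They were 4.83 ± 0.25 in knockout controls and 5.20 ± 0.09 in sleep-deprived knockouts. Of these 14 profiles, 7 rose and 7 fell with sleep deprivation in the knockout, and the median of their changes was 0.0001. The higher array median in sleep-deprived knockouts is therefore not a shift shared by the 14 profiles. For Vmn2r profiles the 4 group means lay between 5.59 and 5.64, and for olfactory profiles between 4.99 and 5.12, with SDs of 0.07 to 0.14. The Vmn1r median was highest, at 5.44, in sleep-deprived wild type replicate 1 and knockout control replicate 3, and the median of all rows was also high on both arrays, at 6.04. The highest median of all rows, 6.07, was on a sleep-deprived knockout array, and in that group no Vmn1r median exceeded 5.30. The part of these arrays in the family medians was not tested.

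**Figure D5:**
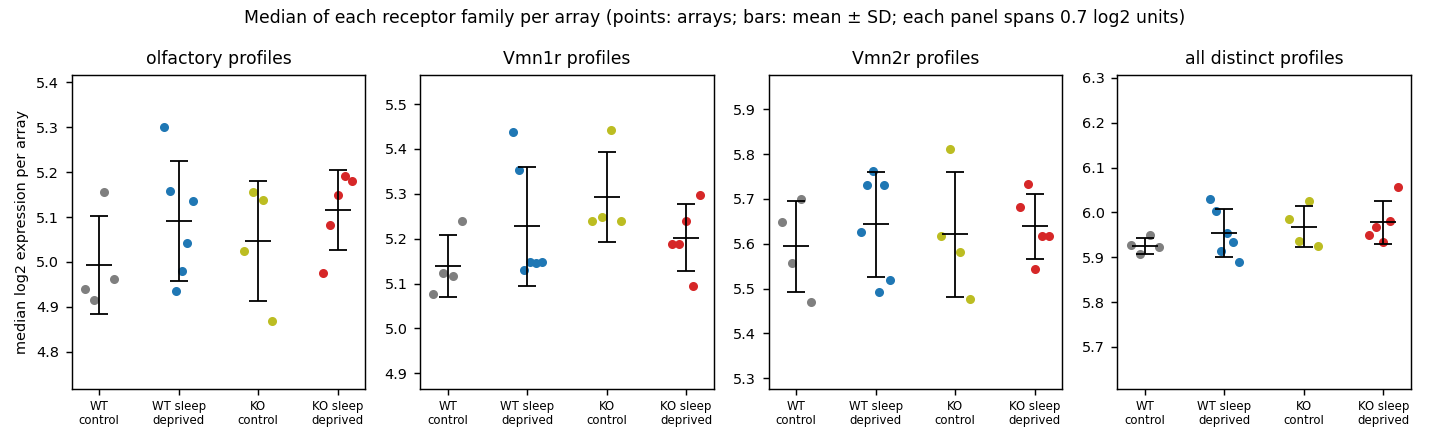
Median log2 level of the olfactory, Vmn1r, Vmn2r and all distinct profiles on each array, in the 4 groups, with bars for mean ± SD. In the Vmn1r family the controls of the 2 genotypes meet at 5.24, the other groups overlap, and the Vmn1r median reaches 5.44 on 1 sleep-deprived wild type and 1 knockout control array.

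The molecules that carry the receptors' signal were almost unmeasured under their own names. Of 39 genes of olfactory sensory neuron transduction and identity, 0 had a probe set of their own in the table used here. Of 38 genes of the vomeronasal pathway 1 had, the channel gene Trpc2, at 7.04 ± 0.02 (SD, n = 4) in wild type controls, 7.05 ± 0.05 (n = 6) in sleep-deprived wild type, 7.01 ± 0.03 (n = 4) in knockout controls and 7.02 ± 0.05 (n = 5) in sleep-deprived knockouts. Its changes ran from -0.04 to 0.02 over the comparisons, with the lowest limma adjusted p at 0.79. Symbols of other chemosensory receptor families were searched for within the table used here, so absent members of these families were not counted. This found 3 measured alone, the Mas-related receptors Mrgpra2a and Mrgpra4 and the bitter taste receptor Tas2r117, and 0 were called. Pheromone and odorant-binding protein genes were searched for in the same way. Of the 18 found, 11 were only on shared probe sets and 7 were measured alone. Of these 7, 0 were called, with the lowest limma adjusted p at 0.34.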

How the data were processed

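Forebrain total RNA was hybridised to the arrays after biotin labelling, per the labels. The authors deposited log2 values. The table used here held 8751 rows, with 1 value for each row on each array, and may not hold every probe set of the platform. Genes absent from it may still be on the array, and shares over all profiles refer to this table only. The submitters' processing notes name RMA, oligo and limma, without versions or roles. For the genome build, nothing was given in the labels. The precision is limited by the number of arrays, 19.

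Receptor rows were found by symbol in the platform annotation, and rows of identical values counted once. Each row of the whole table was fitted with limma 3.58.1 in R 4.3.3, with 4 group means, no covariates and Benjamini-Hochberg adjustment over 8751 rows at a threshold of 0.05, in 7 comparisons. The script was tested on simulated data.

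The members, lists and Vmn1r148 were chosen with earlier results of these data known. Named profiles were the highest and lowest in level, the smallest p per family and comparison, and those listing Vmn1r148 or Olfr560. Replicate numbers are not stated to pair arrays and were not used as pairs in the main fit. Over 25 same-numbered pairs, correlations of deviations ran from -0.22 to 0.08, which cannot show whether arrays were paired. Alternatives covered scaling, dim and multiply annotated rows, the replicate block, the arrays fitted and each array left out. Promoter windows came from RefSeq, GRCm38.p6.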

Additional observations from a re-analysis of the deposited data

Results flagged for a closer look

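Of 132 groups of 4 to 6 arrays tested for a sample far from the others, 2 had one, and chance gives about 1 in 20. Vmn1r148 in knockout control replicate 4 was at 5.75, with the nearest array of its group at 6.39. The median of the Vmn1r profiles in knockout control replicate 3 was 5.44, with the nearest array at 5.25.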

How the results depend on the processing

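Vmn1r148 was called between genotypes after sleep deprivation under all 28 alternatives run, with adjusted p from 0.00052 to 0.015, and its difference lay between 0.98 and 1.19 with each array left out. The count of called receptor profiles in that comparison fell from 2 to 1 with the replicate block and with only the groups compared. It was also 1 without the dimmest 40% of rows and with rows of 1 symbol only. Those settings removed the profile of Olfr564 with Olfr560, so they did not test it. With arrays left out in turn the count lay between 1 and 2, with 1 without sleep-deprived wild type replicate 2 or 6 or sleep-deprived knockout replicate 1, 4 or 5. Where it was tested and the count fell, the profile that lost its call was Olfr564 with Olfr560, whose adjusted p was 0.053 with the replicate block. For the knockout effect averaged over conditions the count rose from 0 to 1 with rows of 1 symbol only, and lay between 0 and 1 with arrays left out, at 1 without knockout control replicate 4. No difference recomputed for Vmn1r148 or for the profiles with the smallest p changed sign. With median centring, 3 medians near 0 did: Vmn2r profiles in controls (0.03 to -0.01) and with sleep deprivation averaged over genotypes (0.02 to -0.00), and all receptors for the knockout averaged over conditions (0.02 to -0.01), the latter pair also with quantile normalization (-0.00 each). With few arrays and mostly dim probe sets, small differences could be missed.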
